A study of Mus musculus with 12 samples.

Results

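The protein-coding genes considered here are those whose annotated span exceeds 700 kb, the longest genes of the mouse autosomes. Spans came from the RefSeq gene table of assembly GRCm38.p6, and 115 of 20605 protein-coding genes on chromosomes 1 to 19 met the rule after the clustered protocadherins were left out. The 115 long genes lay on 19 chromosomes and covered 123 Mb, with spans between 703 and 2271 kb and a median of 969 kb. The longest were Ptprd, Cntnap2, Lsamp, Lrp1b and Macrod2. Accessible DNA had been mapped by ATAC-seq, which tags it with the transposase Tn5, in mouse embryonic stem cells of a BL6xCAST cell line, a cross of 2 mouse strains. One set of lines carried synHPRT1R on chromosome X, the sequence of the human HPRT1 locus written backwards, and the other carried synHPRT1, the same human locus in its natural order. Each genotype had 2 clones with 3 replicates per clone, 12 libraries in all, and the cells of both genotypes grew on gelatin with LIF and the inhibitors CHIR99021 and PD0325901. The labels do not say that replicates came from separate cultures, so a p-value speaks of the scatter of these 12 libraries, which can be technical, and a genotype rests on 2 clones.

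Genes of this size are mostly intron. Many encode adhesion proteins, receptors and channels of neurons, and several are known as common fragile sites, stretches that tend to break when replication is slowed. In embryonic stem cells most neuronal genes are transcribed little or not at all, yet promoters rich in CpG dinucleotides are often nucleosome-depleted in cells that do not express the gene. Open sites inside introns are commonly enhancers, alternative promoters or binding sites of architectural proteins such as CTCF.

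Promoter sequences of long genes are shown first because promoter windows with and without a peak differed in base composition. RefSeq promoter records existed for 90 of the 115 long genes, and for each gene the record nearest the outermost annotated start was used. A record covers 300 bases, of which the 250 upstream of the start are printed or scored. The 4 sequences below are the most open and the least open long gene with a peak at that window in 12 libraries (Ptprn2 and Nrg3), then the most open and the least open with a peak there in 0 libraries (Pde4d and Rbfox1). They run 5′ to 3′ on the strand of the gene in GRCm38.p6, with each CpG in capitals. Ptprn2 is at chr12:116485470-116485719 (+), Nrg3 at chr14:39473089-39473338 (−), Pde4d at chr13:108653927-108654176 (+) and Rbfox1 at chr16:5884543-5884792 (+).
Ptprn2: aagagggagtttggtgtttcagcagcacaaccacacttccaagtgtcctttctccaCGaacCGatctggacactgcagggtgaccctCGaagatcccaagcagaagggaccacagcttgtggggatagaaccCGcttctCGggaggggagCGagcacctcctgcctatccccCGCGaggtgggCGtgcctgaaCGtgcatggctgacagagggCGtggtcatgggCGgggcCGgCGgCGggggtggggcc
Nrg3: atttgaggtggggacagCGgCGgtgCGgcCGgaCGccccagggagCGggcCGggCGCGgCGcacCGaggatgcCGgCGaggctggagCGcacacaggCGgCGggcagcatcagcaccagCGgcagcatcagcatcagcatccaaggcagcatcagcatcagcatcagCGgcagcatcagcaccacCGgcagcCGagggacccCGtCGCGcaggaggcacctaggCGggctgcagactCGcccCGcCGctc
Pde4d: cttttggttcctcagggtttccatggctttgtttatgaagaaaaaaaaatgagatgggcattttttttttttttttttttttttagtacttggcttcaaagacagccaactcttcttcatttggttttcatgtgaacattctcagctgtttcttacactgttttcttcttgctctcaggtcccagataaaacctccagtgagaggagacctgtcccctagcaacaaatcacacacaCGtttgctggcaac
Rbfox1: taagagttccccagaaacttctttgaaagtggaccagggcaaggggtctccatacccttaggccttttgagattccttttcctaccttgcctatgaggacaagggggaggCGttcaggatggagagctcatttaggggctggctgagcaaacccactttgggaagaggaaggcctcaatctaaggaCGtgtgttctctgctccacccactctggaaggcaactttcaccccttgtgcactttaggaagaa
The 250 bases of Nrg3 hold 27 CpG and those of Ptprn2 hold 15, against 1 in Pde4d and 2 in Rbfox1.

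The same order held over all 90 long genes. Among the 45 with a peak at the promoter window in 12 libraries, the median was 17 CpG (range 3 to 44) and 63.6% G + C. Among the 26 with a peak there in 1 to 11 libraries, it was 9 CpG (2 to 39) and 54.2% G + C. Among the 19 with none, it was 3 CpG (0 to 9) and 45.6% G + C, and 0 of the 19 reached 10 CpG, against 37 of the 45. The other 16367 protein-coding genes with a record showed the same order, with a median of 18 CpG where 12 libraries had a peak and 2 CpG where none did. Motifs were searched on both strands of the 250 bases. GGGCGG, the GC box, was present in 53.3% of long-gene promoters with a peak in 12 libraries, in 30.8% of those with a peak in some libraries and in 0% of those with none. In promoters of other genes it was present in 66.2% of those with a peak in 12 libraries and in 10.6% of those with none, and over all promoters in 35.6% of long genes and 43.6% of other genes. TATAAA was present in 2.22%, 7.69% and 26.3% of the same 3 sets of long genes, against 5.01% of other promoters with a peak in 12 libraries and 24.7% of those with none. Over all promoters the shares were 8.89% in long genes and 12.6% in other genes. These are counts over genes, which are not replicates, and they describe letters in a window and not binding. In 9 of the 19 genes without a peak the nearest RefSeq start lay more than 1 kb inside the annotated span, so the outermost start itself was not scored there. A peak at this window is thus a different measure from a gene-end peak. The same held for 11 of the 45 genes with a peak in 12 libraries and 5 of the 26 with a peak in some.

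**Figure D1:**
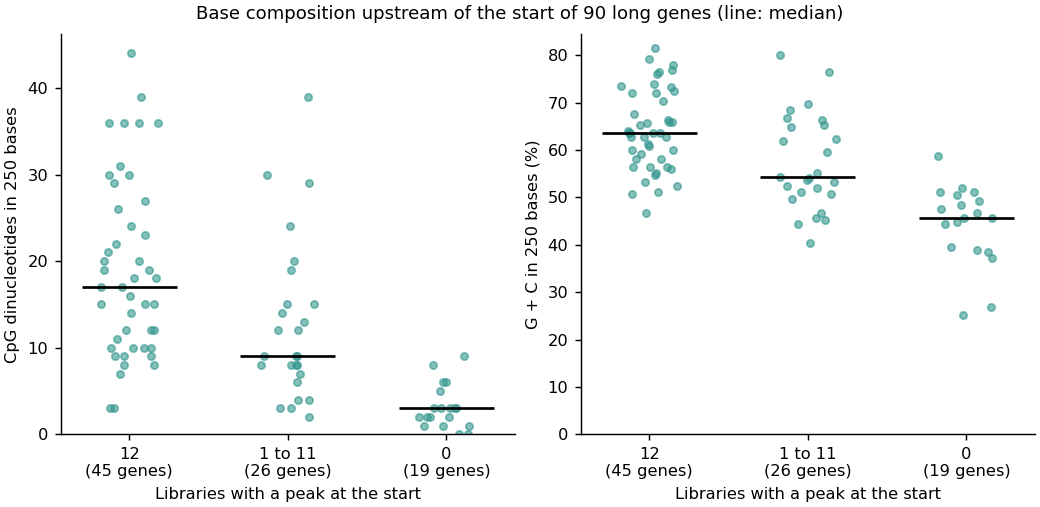
CpG dinucleotides (left) and percent G + C (right) in the 250 bases upstream of the annotated start of 90 long genes, split by the number of libraries with a peak at the promoter window. Each point is a gene and the line is the median. Median CpG is 17 with a peak in 12 libraries, 9 with a peak in 1 to 11 and 3 with none.

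The lists held 38403 to 63704 peaks per library, and read depth was not given. No pair of libraries shared more than 0.144% of peaks with identical positions. In each list a peak was assigned to a gene by its summit. Of 10 embryonic stem cell markers, 8 showed a gene-end peak, one reaching to within 1 kb of an annotated end, in at least 10 libraries, among them Nanog, Sox2 and Zfp42, while Pou5f1 had one in 6 and Esrrb in 1. Of 10 fibroblast or feeder markers, 2 did, Col1a1 and Twist2 in 11 libraries each, and Col3a1, Fap, Postn and Lum had one in 0. Of 9 neuron markers measured, 6 did, among them Snap25, Syt1 and Map2, while Gad1 had one in 7 and Slc17a7 and Rbfox3 in 2 each. The background was 56.5% of the protein-coding genes other than the long genes.

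Long genes were sparsely open but their ends were open about as often as those of other large genes. Over 12 libraries, long genes held 1.01 ± 0.165 peaks per 100 kb and the other 20490 protein-coding genes 2.72 ± 0.431 (SD, n = 12 libraries). Long genes were lower in 12 of 12 libraries (two-sided exact sign-flip permutation test, p = 0.000488, the smallest this design can give). To leave out the outer 1 kb, a larger share of a short gene, peaks more than 1 kb from both ends were also compared. This cut does not remove all of the rise near ends. In long genes density was 4.71 peaks per 100 kb at 1 to 5 kb from the nearest end and 0.832 beyond 350 kb. A short gene has a larger share of its span that close to an end. Long genes held 0.958 ± 0.164 internal peaks per 100 kb and other genes 1.87 ± 0.392, again lower in 12 of 12 libraries (exact sign-flip permutation p = 0.000488).

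The density was lower in each longer class of genes. Genes of 300 to 700 kb held 1.40 ± 0.248 peaks per 100 kb, genes of 100 to 300 kb 2.16 ± 0.392 and genes up to 100 kb 3.70 ± 0.540, so long genes had 0.723 times the density of the class just below them. Long genes were lower than each of these classes in 12 of 12 libraries, also for internal peaks (each exact sign-flip permutation p = 0.000488, Benjamini-Hochberg adjusted 0.000628 over 9 comparisons). A gene-end peak was present in 74.5 ± 2.11% of long genes, 75.3 ± 1.97% of genes of 300 to 700 kb, 76.8 ± 2.14% of genes of 100 to 300 kb and 59.2 ± 2.61% of genes up to 100 kb. The difference between long genes and the 300 to 700 kb class was −0.829 percentage points and did not pass (lower in 8 of 12 libraries, exact sign-flip permutation p = 0.0527). The long genes were 2.32 points below the 100 to 300 kb class (lower in 11 of 12, exact p = 0.000977) and 15.3 points above the shortest class (higher in 12 of 12, exact p = 0.000488).

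**Figure D2:**
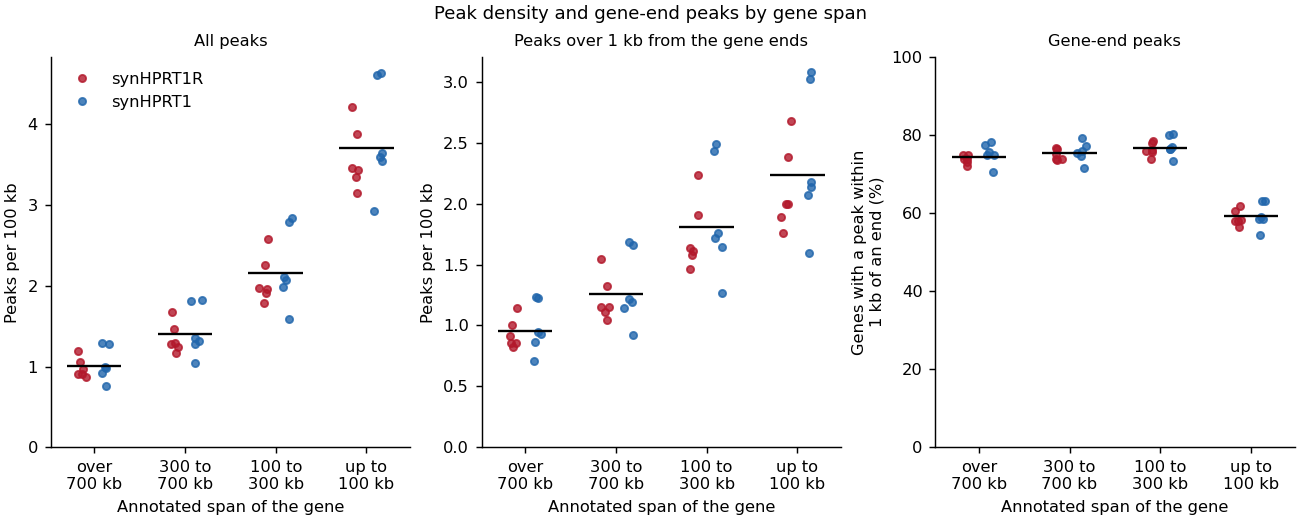
Peaks per 100 kb (left), peaks per 100 kb more than 1 kb from the gene ends (middle) and percent of genes with a gene-end peak (right), by annotated span of the gene. Points are libraries by genotype, lines are means of 12 libraries, and axes start at 0. Long genes average 1.01 peaks per 100 kb, against 1.40, 2.16 and 3.70 in the shorter classes, while 74.5% of them have a gene-end peak.

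The DNA around long genes was more open than the genes themselves. Within 500 kb on either side, there were 1.76 ± 0.294 peaks per 100 kb, against 1.01 ± 0.165 inside the long genes. With every other protein-coding gene masked, long genes held 0.956 ± 0.164 and their flanks 1.21 ± 0.230 peaks per 100 kb. Long genes were below their flanks in 12 of 12 libraries in both comparisons (exact sign-flip permutation p = 0.000488 each).

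All 115 long genes had at least 1 peak inside the span in each of 12 libraries. The share was 33.3% of the other 20490 protein-coding genes, whose shorter spans leave less room for a peak. A gene-end peak was listed in 12 libraries for 75 long genes (65.2%), in 1 to 11 libraries for 17 and in none for 23 (20%). The corresponding shares of other genes were 49.6% in 12 libraries and 30.0% in none. At least 10 libraries had a gene-end peak in 82 long genes (71.3%), against a background of 56.5% of other genes. By span the share was 72.5% in genes of 300 to 700 kb, 73.2% in genes of 100 to 300 kb and 54.5% in genes up to 100 kb. The higher share was thus not particular to long genes. Presence at a gene end was thus close to all or none: of the 17 intermediate genes, 7 were missing it in a single library.

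The open end was the start. In the 90 long genes of known strand, a peak at the outermost start (within 1 kb) was present in 73.2 ± 2.61% of genes and one within 1 kb of the far (3′) end in 4.91 ± 1.11% (SD, n = 12 libraries; start higher in 12 of 12, exact sign-flip permutation p = 0.000488). The start had a peak in 12 libraries in 56 genes and in none in 18. The far end had one in 12 libraries only in Alk, a receptor tyrosine kinase gene, and in none in 84 genes. Macrod2, Agbl4 and Spag16 had a far-end peak in 11 libraries each, Nckap5 in 7 and Marchf1 in 1.

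Several genes without a gene-end peak were open at another annotated start. Of the 23 such genes, 18 had promoter records, and 10 of these had a peak within 1 kb of a recorded start in 12 libraries: Magi2, Nkain2, Asic2, Epha6, Ntm, Cdh18, Pcdh9, Hdac9, Celf2 and Adgrb3. Cdh12, Rbms3 and Mgat4c had one in 1 to 11 libraries. Pde4d, Tenm3, Agbl1, Lrrtm4 and Iqschfp had none at any recorded start. Records do not list every alternative start of these genes, and Pde4d has 1 record.

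Peak density fell within a few kb of the start. The first 1 kb inside the start held 51.0 ± 2.61 peaks per 100 kb and the last 1 kb before the far end 2.31 ± 0.572 (higher at the start in 12 of 12 libraries, exact sign-flip permutation p = 0.000488). From 1 to 5 kb the values were 6.16 ± 0.893 at the start and 2.34 ± 0.401 at the far end (12 of 12, exact p = 0.000488). Beyond 10 kb the order turned round. The side of the gene next to the start held 0.739 ± 0.150 peaks per 100 kb and the side next to the far end 1.13 ± 0.188, each counted from 10 kb inside the end to the middle of the gene. The start side was lower in 12 of 12 libraries (exact sign-flip permutation p = 0.000488). It was lower in 58 of 90 genes, higher in 29 and equal in 3. The comparison of sides was not planned, and the 2 profiles cross at the 10 kb cut in these same data. Its p-value is therefore descriptive. With other protein-coding genes masked, the values were 0.738 ± 0.149 and 1.11 ± 0.186. Pde4d, Etl4, Tenm3, Cntnap2 and Dlgap1 gave 47.4% of the difference. In Pde4d the start side held 13.3 peaks per library and the far side 39.9.

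**Figure D3:**
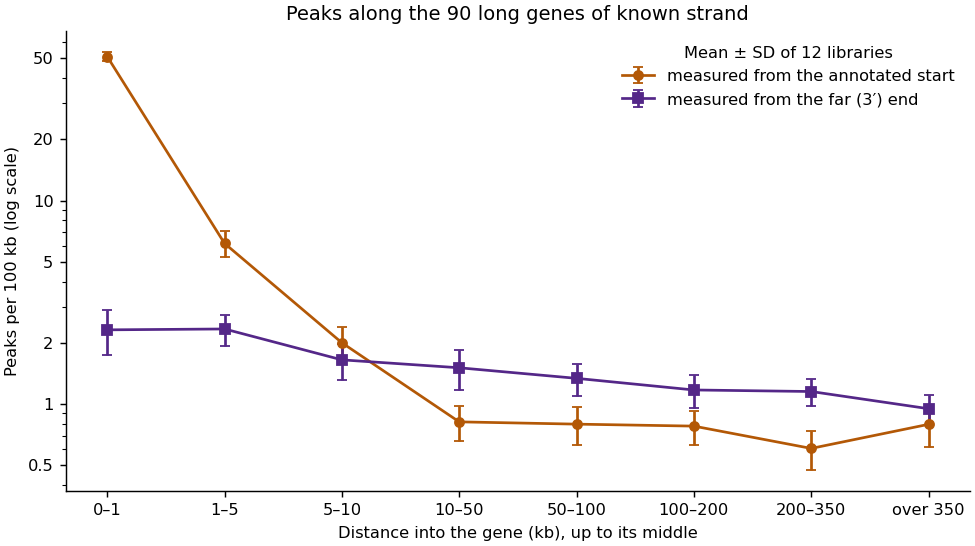
Peaks per 100 kb (log scale) against distance into the gene in 90 long genes of known strand. Distance runs from the outermost annotated start and from the far end to the middle of the gene. Points are means and bars SD of 12 libraries. The start holds 51.0 peaks per 100 kb in its first 1 kb, and beyond 10 kb the line measured from the start lies below the line measured from the far end.

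Merging the lists gave 2568 distinct open regions in long genes, of which 594 (23.1%) were present in 12 libraries, against 23.6% of the regions elsewhere on the autosomes. The 105 gene-end regions had a median width of 1277 bp, and 76 of them (72.4%) were present in 12 libraries. The 2463 internal regions had a median width of 472 bp, and 518 (21.0%) were present in 12 libraries. Of the internal regions, 53 lay at another annotated start of the same gene, 74 at an end of another gene, 127 inside another gene and 2209 away from all of these. The regions at other annotated starts were present in 12 libraries in 54.7% of cases and those away from annotated features in 20.3%. Gene-end peaks were also stronger: ranked by fold over local background within their own list, their median percentile was 73.5 ± 2.74, against 49.5 ± 2.07 for internal peaks (higher in 12 of 12 libraries, exact sign-flip permutation p = 0.000488).

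The strongest internal regions by fold lay in Cntnap5b, Mdga2, Cntnap2 and Lrp1b. They were picked after their values were seen and are given as a description, with the authors' fold. A region of 312 bp in Cntnap5b (chr1:100180113-100180424), 310 kb from the nearer end of the gene, had a fold of 30.3 to 37.0 and stood at percentile 99.95 of its lists on average. A region of Mdga2 (chr12:67059166-67059936) had a fold of 19.2 to 26.6, and one of Cntnap2 (chr6:46287423-46288404), 1013 kb from the nearer end, a fold of 16.6 to 25.4. Lrp1b, a lipoprotein receptor-related gene, held one at chr2:42569544-42570269 with a fold of 13.1 to 18.7. All 4 were listed in 12 libraries and lay away from annotated ends and other genes. Cntnap5b and Mdga2 were otherwise sparsely open, with 0.510 and 0.590 peaks per 100 kb.

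Single long genes differed far more than the libraries did. Mean density ran from 0.173 in Nrg3 to 4.09 in Pde4d, a 23.6-fold range, with a median of 0.795. Length did not order the genes: Spearman's rho between span and density was −0.073 over 115 genes, which share the same libraries. Genes with a gene-end peak in 12 libraries had a median of 0.814 peaks per 100 kb and those with none 0.754.

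Pde4d, a cAMP-hydrolysing phosphodiesterase gene of 1302 kb (chr13:108654177-109955969), was the most open. It held 45, 49.5 and 69 peaks as the lowest, median and highest of the 6 synHPRT1R libraries, and 39, 53.5 and 67 in the 6 synHPRT1 libraries, so the genotypes overlapped. It had no gene-end peak in any library, but 105 distinct regions, 25 of them in 12 libraries. Tenm4, a teneurin adhesion gene, held 26, 27.5 and 40 peaks in synHPRT1R and 19, 31.0 and 37 in synHPRT1 libraries, a mean of 4.04 ± 0.785 per 100 kb, and a gene-end peak in 7 libraries. Ptprn2, which encodes a receptor-type phosphatase-like protein of secretory vesicles, had 27, 28.5 and 37 peaks in synHPRT1R and 23, 31.0 and 38 in synHPRT1 libraries. Its density was 3.87 ± 0.550 per 100 kb.

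Etl4 (3.31 ± 0.756 peaks per 100 kb), Auts2, a chromatin regulator gene (3.20 ± 0.449), and Dlgap1, a postsynaptic scaffold gene (2.89 ± 0.423), followed. Also among the 12 most open were Adgrl3, which encodes a synaptic adhesion protein, Robo1, the receptor of the guidance cue Slit, Sox5, a transcription factor gene, Adamtsl1 and Arhgap26, between 1.96 and 2.28 per 100 kb. Pde4d and Tenm4 were the 2 of these 12 without a gene-end peak in every library. SDs of neighbours in this order overlapped.

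At the other end, Nrg3, the gene of a neuregulin growth factor (chr14:38365102-39473235, 1108 kb), held 1 to 2 peaks in synHPRT1R and 1 to 3 in synHPRT1 libraries, 0.173 ± 0.0465 per 100 kb. Its gene-end peak was nevertheless listed in 12 libraries, at the CpG-rich sequence printed above. The summit of that peak lay outside the annotated span in 12 of 12 libraries and does not count towards the density. Only 4 regions were found in Nrg3, and 509 kb of it, 45.9% of the span, held no peak in any library, the longest such stretch among the long genes. Cacna2d3, a calcium channel subunit gene, held 1 to 5 peaks in synHPRT1R and 2 to 3 in synHPRT1 libraries, 0.316 ± 0.122 per 100 kb, with a gene-end peak in 12 libraries and no internal region in all of them. Rbfox1, a neuronal splicing factor gene of 1528 kb, held 3 to 6 peaks in synHPRT1R and 4 to 9 in synHPRT1 libraries and a gene-end peak in 1 library.

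Csmd1, Lrmda, Kcnma1, Pard3b, Grm8, Pcdh9, Dlgap2 and Lrrc4c were also among the 12 least open, between 0.350 and 0.444 per 100 kb. Of the 12, 8 had a gene-end peak in every library. Pard3b, a cell polarity gene, was the most regular of them, with 4 peaks in each synHPRT1R library and 4 or 5 in each synHPRT1 library, and 4 of its 5 regions present in 12 libraries. Kcnma1, the gene of a large-conductance potassium channel, had 4 regions in 713 kb. A stretch of over 200 kb without a peak in any library occurred in 67 long genes and one of over 400 kb in 9. An internal region present in 12 libraries was found in 111 long genes, and Mgat4c, Agbl1, Exoc4 and Cacna2d3 had none.

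**Figure D4:**
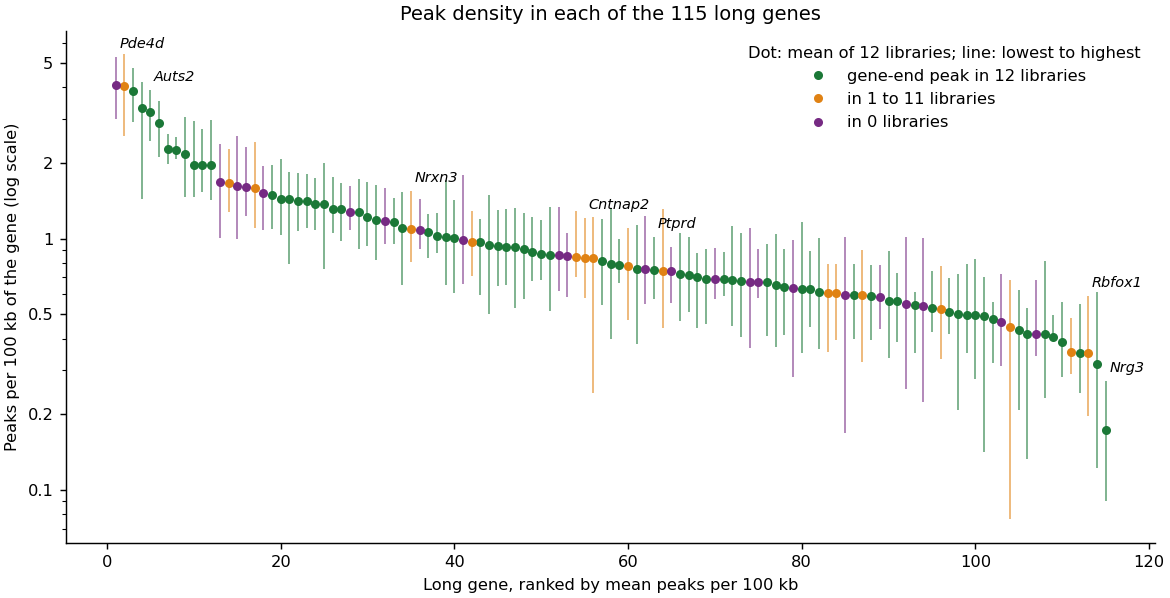
Peaks per 100 kb (log scale) of each of the 115 long genes, ranked by mean. Dots are means of 12 libraries, lines run from the lowest to the highest library, and colour gives the number of libraries with a gene-end peak. Density runs from 4.09 in Pde4d to 0.173 in Nrg3, and genes with and without a gene-end peak are found along the whole order.

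Lists of gene roles, written by hand and sharing some genes, differed little in their medians. Their names are approximate: Nrg3, a growth factor gene, and Ptprn2, a phosphatase-like gene, stand in the adhesion list. The 37 genes listed under synaptic and neuronal adhesion had a median of 0.704 peaks per 100 kb, from Nrg3 at 0.173 to Tenm4 at 4.04. Of these genes, 20 had a gene-end peak in 12 libraries. The 18 genes of ion channels, neurotransmitter receptors and their scaffolds had a median of 0.830, and 11 had a gene-end peak in 12 libraries. The median was 0.915 for 6 genes listed under axon guidance, from Dab1 at 0.629 to Robo1 at 2.17. It was 0.901 for 10 genes listed as DNA- and RNA-binding regulators, from Rbfox1 at 0.349 to Auts2 at 3.20. The 10 genes listed as signalling enzymes and scaffolds had a median of 0.821, from Pard3b at 0.407 to Pde4d at 4.09. A mixed list of 21 enzyme, organelle, matrix and repair genes had a median of 1.02, from Exoc4 at 0.494 to Adamtsl1 at 1.96, and 18 of the 21 had a gene-end peak in 12 libraries. Of the 20 common fragile site genes, 17 had a gene-end peak in 12 libraries, with a median of 0.852. The median over all 115 long genes was 0.795, and 65.2% had a gene-end peak in 12 libraries.

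Related genes could differ widely. Long genes whose symbols share a stem formed 16 families of 35 genes, and the most open gene of a family had 1.16 to 6.92 times the density of the least open, with a median of 2.11. Dlgap1 had 2.89 peaks per 100 kb and Dlgap2 0.418, both with a gene-end peak in 12 libraries. Among the teneurins, Tenm4 had 4.04, Tenm3 1.68 and Tenm2 0.677, with a gene-end peak in 7, 0 and 12 libraries. The cadherins Cdh18, Cdh13 and Cdh12 had 1.27, 0.598 and 0.587, and all 3 had a gene-end peak in 0 libraries.

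Genes just inside and just outside the 700 kb limit are given as a description. Just above it, Fgf14 (703 kb) held 1.67 ± 0.310 peaks per 100 kb. Just below it, Arhgap24 (698 kb) and Grik2 (696 kb) held 1.22 ± 0.225 and 0.802 ± 0.167.

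No genotype difference passed the test in the lists as deposited. In synHPRT1R libraries the density of long genes was 0.874 at the lowest, 0.937 at the median and 1.20 at the highest, and in synHPRT1 libraries 0.761, 0.990 and 1.29, so the synHPRT1R values lay within the synHPRT1 range. The means were 0.984 ± 0.122 in synHPRT1R and 1.04 ± 0.207 in synHPRT1 (SD, n = 6 each, two-sided exact permutation p = 0.600). Clone means were 1.04 and 0.927 in synHPRT1R and 1.06 and 1.02 in synHPRT1. With the clone as the unit, the smallest p an exact permutation test allows is 0.333. Internal peaks came to 0.931 ± 0.122 per 100 kb in synHPRT1R and 0.985 ± 0.207 in synHPRT1 (exact permutation p = 0.604, n = 6 each). A gene-end peak was present in 73.8 ± 1.02% of long genes in synHPRT1R and 75.2 ± 2.74% in synHPRT1 (exact permutation p = 0.305, n = 6 each). Long genes held 2.61 ± 0.0576% of all autosomal peaks in synHPRT1R and 2.56 ± 0.0311% in synHPRT1 (exact permutation p = 0.0887, n = 6 each, adjusted p = 0.355 over these 4 values by Benjamini-Hochberg). Without synHPRT1R clone 2 replicate 2 this difference was 0.0682 percentage points (exact permutation p = 0.0130, 5 against 6 libraries). Without synHPRT1 clone 2 replicate 3, the shortest list, the difference in gene-end share was −2.41 points (exact permutation p = 0.0130, 6 against 5 libraries).

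Density followed the length of the list, of which the long-gene peaks are a part. Their share lay between 2.52% and 2.67% in all libraries and the span is fixed. A high correlation is therefore largely built in, and its p-value is descriptive. Across 12 libraries Pearson's r between the number of autosomal peaks listed and peaks per 100 kb of long genes was 0.994 and Spearman's rho 0.986 (permutation p = 1e-05 for both, the smallest 100000 resamples can give, adjusted p = 3e-05 over 3 relations), and r was 0.986 without the 2 farthest libraries. Within genotypes r was 0.986 in synHPRT1R and 0.999 in synHPRT1 (exact permutation p = 0.00278 and 0.00139, n = 6 each). The share of autosomal peaks lying in long genes did not follow list length (r = −0.041, rho = −0.070, permutation p = 0.899 and 0.836, adjusted p = 0.899). The gene-end share did over 12 libraries (r = 0.835, rho = 0.795, permutation p = 0.00062 and 0.00286, adjusted p = 0.00093), and without the 2 farthest libraries it stayed positive but did not pass (r = 0.611, rho = 0.640, permutation p = 0.0685 and 0.0516, n = 10). Within genotypes r for the gene-end share was 0.488 in synHPRT1R and 0.920 in synHPRT1 (exact permutation p = 0.311 and 0.0139, n = 6 each).

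When each list was shortened to its 37111 strongest autosomal peaks by p-value, the length of the shortest list, the direction of the density difference turned. Long genes then held 0.790 ± 0.0136 peaks per 100 kb in synHPRT1R and 0.759 ± 0.0113 in synHPRT1 (SD, exact permutation p = 0.00649, adjusted p = 0.00866 over 4 values, n = 6 each). Their share was 2.62% in synHPRT1R, from 2.57% to 2.69%, and 2.52% in synHPRT1, from 2.48% to 2.58%. At a minimum −log10 q-value of 5 in place of equal lengths, the density was 0.647 in synHPRT1R and 0.714 in synHPRT1 (exact permutation p = 0.396, n = 6 each), in the direction of the deposited lists. The shares were 2.57% in synHPRT1R and 2.51% in synHPRT1 (exact permutation p = 0.106, n = 6 each). The direction of the density difference thus depended on how the lists were shortened, while the mean share was higher in synHPRT1R in the deposited lists and under both ways of shortening.

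**Figure D5:**
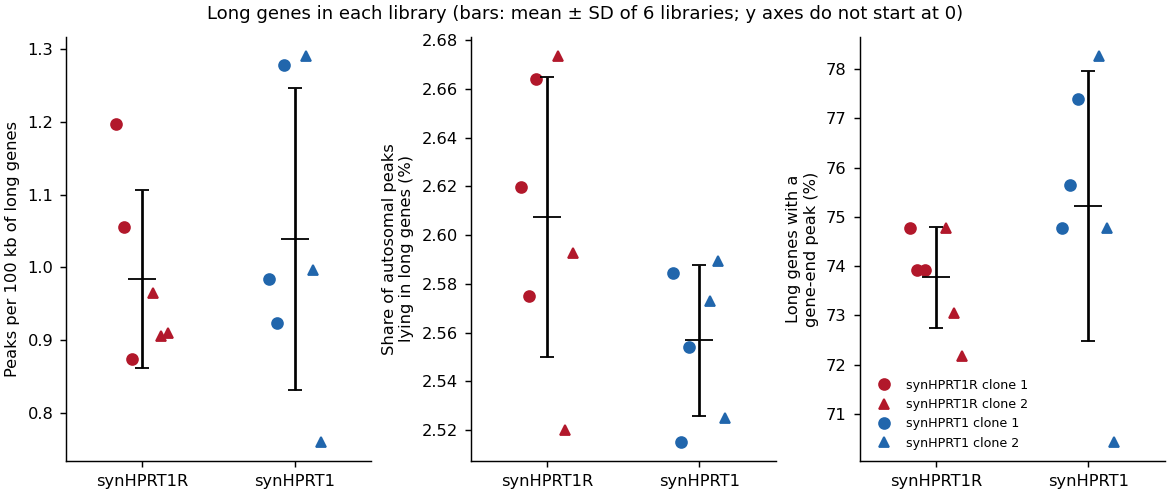
Peaks per 100 kb of long genes (left), share of autosomal peaks in long genes (middle) and share of long genes with a gene-end peak (right), as deposited, for each library by genotype and clone. Bars are mean ± SD of 6 libraries, and the axes do not start at 0. The genotypes overlap in all 3 panels, with means of 0.984 and 1.04 peaks per 100 kb in synHPRT1R and synHPRT1.

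No long gene passed a test of its own. Peaks per gene, scaled to the mean list length, were fitted with limma over 2013 genes with at least 3 peaks per library on average, among them 112 of the 115 long genes. Nrg3, Cacna2d3 and Kcnma1 had too few peaks to be tested. In simulated counts the same fit recovered 30% of genes changed 2-fold and 100% of genes changed 4-fold. These counts had only Poisson scatter, with 100 genes changed at each fold among 2091 tested. In them a 2-fold change was mostly missed, so such a difference in the deposited lists could be missed too. Recovery was not split by peak number or taken for long genes alone, so it gives no rate for a single long gene. At an adjusted p under 0.05 (Benjamini-Hochberg), 0 long genes were called against a background of 0% of all genes, and the smallest adjusted p of a long gene was 0.675. At an unadjusted p under 0.05 there were 5 long genes (4.46%), against a background of 6.66%, with 4 higher in synHPRT1R (background 3.38%) and 1 lower (3.28%). The 3 with the smallest p were higher in synHPRT1R. Exoc4, a subunit gene of the exocyst tethering complex, held 3, 4.0 and 6 peaks in synHPRT1R and 2, 2.0 and 5 in synHPRT1 libraries as lowest, median and highest (log2 difference on the log2(peaks + 0.5) scale 0.57 ± 0.20 SE, limma adjusted p = 0.675). Npas3, a neuronal transcription factor gene, held 5, 8.0 and 10 in synHPRT1R and 2, 5.0 and 10 in synHPRT1 (0.59 ± 0.22, limma adjusted p = 0.675). Ntm, an adhesion gene, held 3, 5.0 and 7 in synHPRT1R and 3, 3.5 and 6 in synHPRT1 (0.37 ± 0.16, limma adjusted p = 0.691). The groups overlapped in all 3 genes.

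No single region passed a test of presence, which could not have called a lone region. Over 72640 autosomal regions present in 1 to 11 libraries, the two-sided Fisher's exact test called 0% after Benjamini-Hochberg adjustment and 0.215% at an unadjusted p under 0.05. Of the 1974 such regions in long genes, 0 and 4 were called. The smallest Fisher's exact p with 6 libraries against 6 is 0.00216. A few regions at that p cannot pass adjustment over 72640 regions. The 0% therefore does not show that no region differs. A region of Lingo2, an adhesion gene (chr4:35839833-35840066), was listed in 6 of 6 synHPRT1R and 0 of 6 synHPRT1 libraries (Fisher's exact p = 0.00216, adjusted p = 1), against a background of 0.0551% of regions listed more often in synHPRT1R at an unadjusted p under 0.05. The other 3 were listed more often in synHPRT1 (background 0.16%). Those of Ptprt and Auts2 were present in 0 of 6 synHPRT1R and 5 of 6 synHPRT1 libraries, and that at the gene end of Nrxn3 in 1 and 6 (Fisher's exact p = 0.0152 each, adjusted p = 1).

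Gene-end presence differed by at least 4 libraries between the genotypes in 2 long genes (1.74%), against a background of 0.234% of other genes. The share was 0.482% (2 genes) in genes of 300 to 700 kb. Of the 48 other genes that differed so, 41 had the peak in more synHPRT1 libraries, as did both long genes. The 2 long genes were Nrxn3, listed in 1 of 6 synHPRT1R and 6 of 6 synHPRT1 libraries, and Fgf14, in 0 of 6 and 4 of 6. Next came Lrmda, in 0 of 6 synHPRT1R and 3 of 6 synHPRT1 libraries, and Cntnap5a, in 6 of 6 and 3 of 6. The Nrxn3 peaks were of middling rank, at percentile 42.2 by fold on average. Nrxn3 and Fgf14 both had a peak at another annotated start in 12 libraries.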

How the data were processed

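ATAC-seq peak lists of 12 libraries were analysed, 6 per genotype, with groups and replicate numbers from the sample titles. Per the submitters' processing notes, the tools were MACS2 2.1.0, deepTools 3.5.0, SAMtools 1.9, Bowtie2 2.2.9 and bcl2fastq 2.20, on build GRCm38 (mm10). Their settings and the handling of the Tn5 offset, duplicates and multi-mapping reads are not given in the sources used for this text. Every library has a peak list of its own, so lists were not called on pooled samples. The authors' deposited lists hold, per peak, an integer score, the fold (a ratio of the summit pileup over local background), the −log10 p-value and −log10 q-value of the summit, and the distance of the summit from the first base of the peak. The deposited fold and p-value served to rank peaks within a list and the q-value to filter them, and the score was not used. The total number of reads is unknown, and the number of listed peaks stood in for depth.

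Genes were the protein-coding entries of chromosomes 1 to 19 in the RefSeq table of GRCm38.p6 (20665 genes), less 60 genes of the clustered protocadherins, of which 3 were longer than 700 kb. The table gives outer starts and ends without exons, so exonic and intronic peaks were not told apart. Strand and starts came from RefSeq promoter records, which matched 90 long genes. A peak belonged to a span by its summit, and a gene-end peak overlapped the 1 kb on either side of an annotated end. Overlapping peaks of all lists were merged into regions, and a region was present in a library if any of its peaks touched it by 1 bp or more.

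Genotypes were tested two-sided by exact permutation over the 924 splits of 6 libraries against 6 (smallest p 0.00216). Gene sets and positions were compared within libraries with two-sided exact sign-flip permutation tests over 12 libraries. Peaks per gene were fitted with limma 3.58.1 in R 4.3.3 on log2(peaks scaled to the mean list length + 0.5), after testing on simulated data, and regions with Fisher's exact test, all Benjamini-Hochberg adjusted at 0.05 over all features. Other values were computed with Python 3.11.15, numpy 2.4.6, pandas 2.3.3 and scipy 1.17.1. Same-numbered replicates of the genotypes did not deviate together (correlations −0.191 to 0.169, against −0.167 to 0.241 for other pairs, over 2013 genes), so the numbers were not treated as pairs.

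Named genes were the 12 most and 12 least open, the 5 longest, 2 on each side of the 700 kb limit, the 3 with the smallest p, the highest and lowest of each role list and the 4 with the largest genotype difference in gene-end presence. Other genes named were chosen after their values were seen, as were the strongest internal regions and the families. Genes these rules pick that are not named are not reported here. The long genes, role lists and marker lists were chosen with earlier results of these data known. Alternatives that moved a main result are given with their effect below, and not every alternative run is listed there. The flanks of long genes, the masked sides of the genes and a presence rule of 50% coverage were added after seeing the data. The comparison of the whole sides of the genes was not among the planned tests.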

Additional observations from a re-analysis of the deposited data

Results flagged for a closer look

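Within 6 libraries of a genotype, 8 of 80 sets of values had 1 library far from the rest. Its gap to the nearest library, over the whole range, passed Dixon's 95% limit. For continuous normal values chance alone flags about 1 set in 20. Most of these sets are peak counts of single genes, often with ties, and the chance rate for them is not known. In synHPRT1R clone 1 replicate 1, the longest list of its genotype with 58099 peaks, 3 genes were highest. Peaks per 100 kb there were 5.30 in Pde4d (next highest 3.92), 5.41 in Tenm4 (4.19) and 1.99 in Fgf14 (1.56). In synHPRT1R clone 1 replicate 3, the shortest list of its genotype with 41737 peaks, values were low in Nrg3 at 0.0902 (next 0.180) and Dab1 at 0.444 (0.622). Cntnap5a stood at 0.776 in synHPRT1R clone 1 replicate 2 (next 0.554). Pard3b stood at 0.498 in synHPRT1 clone 1 replicate 2 (next 0.399) and Pcdh9 at 0.682 in synHPRT1 clone 2 replicate 1 (next 0.455). In Nrg3 and Pard3b the gap is 1 peak. The part of list length in these values was not tested.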

How the results depend on the processing

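The differences between long and other genes in density, internal density and gene-end share, and between gene-end and internal peaks in rank by fold, kept their direction and their side of the threshold under every alternative run. Genotype differences, as synHPRT1R minus synHPRT1, did not. With lists of equal length they were 0.0310 peaks per 100 kb, 0.0305 internal peaks per 100 kb, 0.103 points of peak share and 0.725 points of gene-end share (exact permutation p = 0.00649 for each of the first 3 and 0.357 for the last, n = 6 each), while the deposited lists gave −0.0546, −0.0533, 0.0507 and −1.45. With spans over 1000 kb the gene-end difference was −3.33 points (exact permutation p = 0.0390, n = 6 each). Leaving out each library gave −0.110 to −0.00439 for density, −0.108 to −0.00334 for internal density, 0.0375 to 0.0682 for peak share and −2.41 to −0.841 for gene-end share. The cause of these changes was not tested.

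Counts of genes at an adjusted p under 0.05 in limma were 0 as reported and 3 without the filter on peak number, 0 of them a long gene. At an unadjusted p they were 134, and 848 without the filter, 73 with a minimum −log10 q-value of 5 and 116 to 147 with a library left out. For long genes they were 5, and 3 without the filter, 0 without scaling to list length and 2 to 6 with a library left out. Region counts at an unadjusted p were 156, and 262 to 491 with a library left out. In long genes they were 4, and 7 at the stricter q-value and 6 to 15 with a library left out. With replicate number as a block the density difference was −0.0546 (exact permutation p = 0.667, n = 6 each), unadjusted limma counts were 145 over all genes and 4 in long genes, and no call changed under the block or with the clone as a block. Under equal lists, a stricter q-value and masking of other genes, 11, 11 and 12 of the 12 most open genes and 8, 8 and 11 of the 12 least open stayed in place.

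Long genes hold 937 to 1588 peaks per library, so a gene such as Nrg3 rests on 1 to 3 peaks and its density moves by a large factor with a single peak. An unlisted site was taken as not detected.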
